A study of Mus musculus with 9 samples.

Results

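Connexins are the subunits of gap junctions. They assemble into hemichannels that dock between neighbouring cells and let ions, calcium signals and small metabolites pass. In vessels they couple endothelial cells along the wall, mural cells (smooth muscle cells and pericytes) to each other, and, at some contacts, the endothelium to the mural layer. Gja4 (Cx37), Gja5 (Cx40) and Gja1 (Cx43) are the classical connexins of arterial endothelium, and Gjc1 (Cx45) is known from mouse vascular smooth muscle. Gjb2 (Cx26) and Gjb6 (Cx30) are neighbouring genes known for their channels in the inner ear, and in brain for meningeal cells and, in the case of Gjb6 and Gja1, for astrocytes.

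These 6 genes were followed across the 9 cell type labels of a single-cell RNA-seq study of adult mouse brain microvessels. They were chosen by name, all 6 were found in the table of 46517 gene rows, and all had reads; 28386 rows had at least 1 read. Brain tissue was dissociated, vessel fragments were isolated and digested to single cells, and the cells were sorted into 384-well plates and sequenced by Smart-seq2, which reads whole transcripts. The sources used here do not give strain, sex, exact age or the number of animals, and no treatment or genotype was compared. The labels were FB with 9 cells, aEC with 116, vEC with 45, CP-EC with 17, capilEC with 787, vSMC with 29, aSMC with 41, PC with 54 and MG with 137. They come from 4 plates of 261 to 329 cells.

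The labels are not spelled out in the sources, so they were checked against marker genes. The fibroblast list summed to 9782 CPM (reads per 1000000 reads of the type) in FB, with Col1a1, Dcn and Pdgfra at 1589, 3709 and 782 CPM. Bmx (248 CPM) marked aEC, Ackr1 (481 CPM) vEC, Plvap (2223 CPM) CP-EC and Mfsd2a (851 CPM) capilEC. Acta2 stood at 3728 CPM in vSMC and 6440 CPM in aSMC, Kcnj8 at 1876 CPM in PC, and the microglial gene Cx3cr1 at 5539 CPM in MG, a type taken here as background for vessel connexins. The vSMC label held smooth muscle and pericyte markers together. The smooth muscle list summed to 8004 CPM in vSMC, 17988 CPM in aSMC and 1151 CPM in PC. Its gene Cnn1 was at 0.636 CPM in vSMC and 814 CPM in aSMC. The pericyte list summed to 7403 CPM in vSMC, 924 CPM in aSMC and 13605 CPM in PC. Endothelial markers were also present in the mural types: the endothelial list summed to 3587 CPM in vSMC, 1625 CPM in aSMC and 4650 CPM in PC, against 17942 CPM in capilEC. The 1235 cells held 285520064 reads, with 100021 to 854836 reads per cell and medians per type of 158325 (PC) to 269635 (aSMC). Each label is 1 deposited sample, so no difference below carries a test or a p-value. Levels are CPM of the summed counts with exact Poisson 95% intervals, which cover at most the error of counting reads. They are too narrow even for that, since the libraries lack molecular identifiers and PCR copies are counted as independent reads. Plates are shown as a description of spread and are not replicates. From summed counts alone, fewer expressing cells and less mRNA per cell cannot be told apart, so counts of single cells at 50 CPM or above are given beside the levels; that limit was chosen after the values were seen.

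The connexin mRNA of the vessel wall fell into 3 patterns. Gja4 was the main connexin mRNA of vSMC, aSMC and PC, where Gjc1 was also at its highest, and Gja4 was read in a part of aEC as well. Gja1 and, at a lower level than in mural cells, Gjc1 were read in scattered endothelial cells, with a single vEC cell holding most of the vEC Gja1 reads. Gjb2 and Gjb6 were read in FB and hardly elsewhere. Per kilobase of transcript, the scale on which genes can be set side by side, the 6 genes summed to 1781 CPM per kb in FB, 133 in aEC, 17.8 in vEC, 154 in CP-EC, 64.0 in capilEC, 891 in vSMC, 747 in aSMC, 685 in PC and 5.22 in MG. Gja4 made up 80.5% of this sum in vSMC, 90.2% in aSMC and 82.1% in PC. Its share was 72.3% in aEC, 73.2% in CP-EC, 18.6% in capilEC and 6.61% in vEC. The CP-EC share rested on 1 cell with 86.7% of the Gja4 reads, and Gja4 was at 190 CPM with that cell and 26.3 CPM without it. In capilEC, Gja1 held 38.9% and Gjc1 37.6%, and in vEC Gjc1 held 68.4% of a sum that was small. In FB, Gjb2 held 50.2%, Gjb6 41.9% and Gja1 7.46%.

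**Figure D1:**
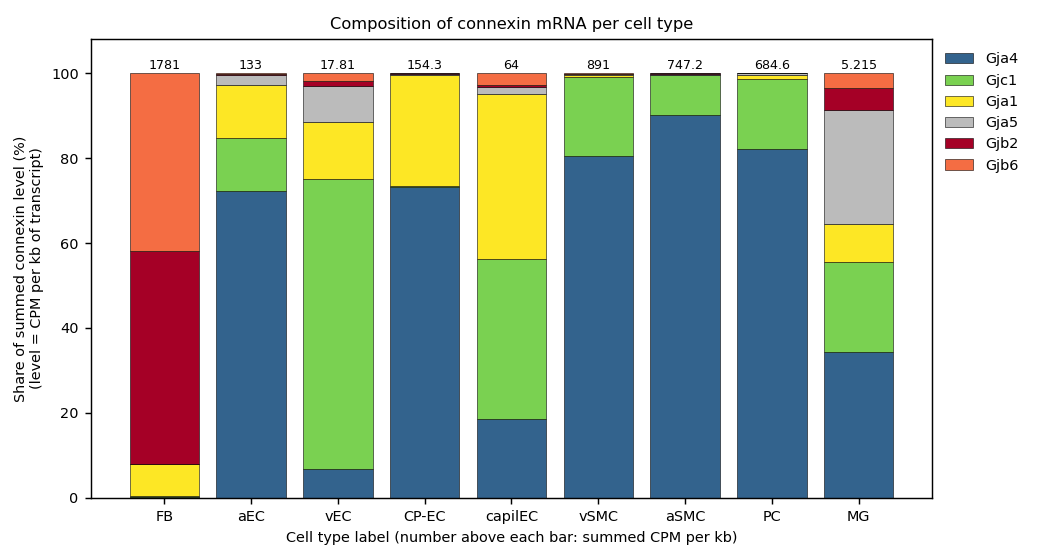
Share (%) of each of the 6 connexin genes in the summed connexin level (CPM per kb of transcript) of each cell type label, with the sum printed above each bar. Gjb2 and Gjb6 fill most of the FB bar, Gja4 fills 80.5% to 90.2% of the 3 mural bars, and capilEC is divided among Gja1, Gjc1 and Gja4. In CP-EC, 1 cell held 86.7% of the Gja4 reads.

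Gja4 levels were 1.17 CPM in FB (interval 0.242 to 3.43), 162 CPM in aEC (158 to 167), 1.98 CPM in vEC (1.32 to 2.87) and 190 CPM in CP-EC (176 to 206). They were 20.1 CPM in capilEC (19.4 to 20.7), 1208 CPM in vSMC (1181 to 1235), 1135 CPM in aSMC (1116 to 1155), 947 CPM in PC (929 to 966) and 3.01 CPM in MG (2.44 to 3.66). The 3 mural types stood above every other type. Over the 4 plates, vSMC ran from 1040 to 1534 CPM, aSMC from 891 to 1320 CPM and PC from 706 to 1152 CPM, so the order of these neighbours did not go beyond the spread of plates. CapilEC (15.3 to 26.1 CPM) lay above MG (1.50 to 5.77 CPM) on every plate, and no vEC plate (0.952 to 3.20 CPM) exceeded the highest MG plate.

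**Figure D2:**
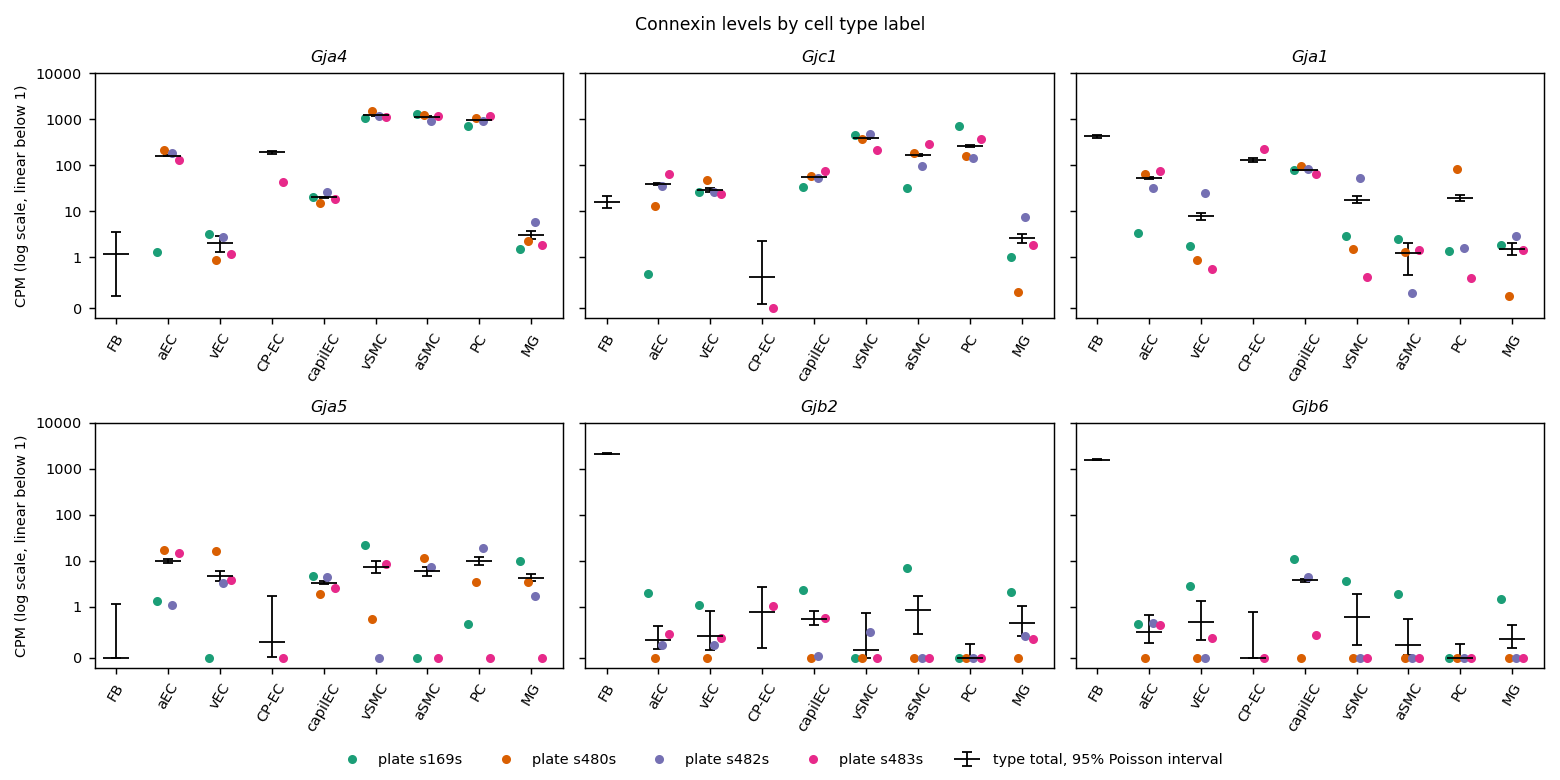
Level (CPM, log scale, linear below 1) of each connexin gene by cell type label. Coloured points are plates with at least 5 cells of the type, black bars the level of the type with its 95% Poisson interval. Gja4 is highest in vSMC, aSMC and PC (947 to 1208 CPM), and Gjb2 and Gjb6 stand at 2150 and 1573 CPM in FB and below 5 CPM as levels of the other types, with single plates up to 11.0 CPM (Gjb6 in capilEC, s169s).

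In single cells, Gja4 reached 50 CPM in 23 of 29 vSMC, 33 of 41 aSMC and 32 of 54 PC. The median cell stood at 995 CPM in vSMC, 1233 CPM in aSMC and 540 CPM in PC. Most mural cells therefore held the transcript, and the highest PC cell reached 6266 CPM. With each cell thinned to 100000 reads, at least 1 Gja4 read was found in 86.2% of vSMC (95% exact binomial interval 68.3% to 96.1%), 82.9% of aSMC (67.9% to 92.8%) and 72.2% of PC (58.4% to 83.5%). The same share was 38.8% in aEC, 24.0% in capilEC and 21.2% in MG, where the median depth was 232674 reads, against 235862 in aEC and 192941 in capilEC before thinning. Without thinning it was 50.9% in aEC, 37.7% in capilEC and 38.7% in MG, so single Gja4 reads in capilEC did not go beyond background: 243 of the 297 capilEC cells with a Gja4 read held 1 or 2.

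At 50 CPM or above, Gja4 was found in 26 of 116 aEC and 21 of 787 capilEC, against 1 of 137 MG. Between 25 and 100 CPM lay 1 aEC cell, but 11 capilEC cells, so the capilEC count depends on where the limit is set. The median aEC cell held 2.44 CPM and the highest 2012 CPM. Such a gap was not particular to Gja4, since Gjc1 in aEC had 13 cells at 50 CPM or above and 0 between 25 and 100 CPM. Whether the 26 cells are a separate group was not tested. No vEC cell of 45 reached 50 CPM, and the highest stood at 28.7 CPM. The cells with Gja4 also had more arterial transcript. The arterial list held Bmx, Gkn3, Sema3g, Efnb2, Vegfc, Hey1, Mgp, Fbln5, Dll4 and Jag1. Efnb2 (12.4 CPM in aEC, 20.5 CPM in capilEC) and Dll4 (141 CPM in aEC, 149 CPM in capilEC) were lower in aEC, the others higher. Summed over this list, the median was 2262 CPM in the 26 aEC cells at 50 CPM or above and 926 CPM in the other 90. In capilEC it was 358 CPM in the 21 cells and 32.9 CPM in the other 766. The median depth of the 26 aEC cells was 288686 reads, against 228278 in the other 90, and the mural list stood at 101 CPM in the 21 capilEC cells, against 57.6 CPM in the others; the part of depth and of mural RNA in these differences was not tested.

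**Figure D3:**
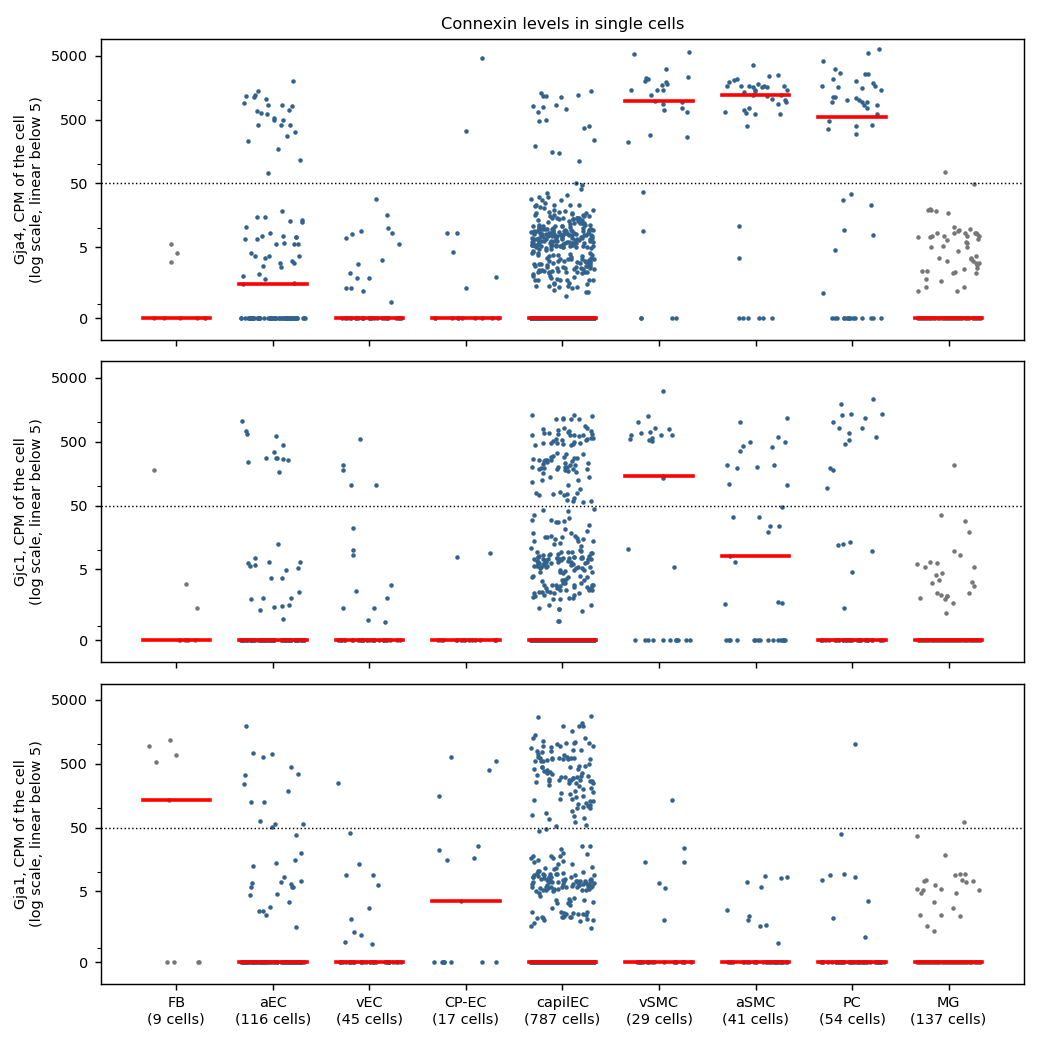
Gja4, Gjc1 and Gja1 in single cells (CPM of the cell, log scale, linear below 5) by cell type label, with the number of cells under each label. Each point is a cell, red bars are medians and the dotted line marks 50 CPM. Gja4 is above the line in most mural cells and in 26 of 116 aEC cells, while Gjc1 and Gja1 are above it in a minority of endothelial cells.

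Differences between types were taken as log2(CPM + 5), and a gene was counted as past 4-fold where 2 groups differed by at least 2 log2 units and either exceeded 5 CPM. In the mean of the 3 endothelial types (aEC, vEC and capilEC) against the mean of the 3 mural types (vSMC, aSMC and PC), 2 of the 4 connexins measured were past 4-fold, both lower in endothelium, where of all 12714 genes measured 4.15% were higher and 6.6% lower to that extent, 10.7% in all. Gja4 stood at 61.4 CPM in endothelium and 1097 CPM in mural cells, a log2 difference of -4.05 (plates -6.27 to -3.72). Gjc1 stood at 40.7 CPM in endothelium and 270 CPM in mural cells, a log2 difference of -2.59 (plates -3.97 to -2.33). Both lay on the mural side on all 4 plates. Gja1 was 46.7 CPM in endothelium and 12.7 CPM in mural cells (log2 difference 1.55, plates 0.78 to 3.14), short of the limit. That mural value of Gja1 rested mainly on 1 PC cell and 1 vSMC cell, with 93.6% and 90.2% of the reads of their types. Without the top cell of each type, Gja1 was at 1.24 CPM in PC, 1.98 CPM in vSMC and 1.05 CPM in aSMC. Mural Gja4 was as high without cells that held markers of another class, at 1529 CPM in 16 vSMC, 1188 CPM in 29 aSMC and 1080 CPM in 12 PC.

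In aEC against capilEC, 1 of 4 connexins measured was past 4-fold, and of all genes measured 0.842% were higher and 0.668% lower to that extent, 1.51% in all. It was Gja4, at 162 CPM in aEC and 20.1 CPM in capilEC (log2 difference 2.74). On plates s169s, s480s, s482s and s483s it stood at 1.32, 211, 184 and 128 CPM in aEC, against 20.4, 15.3, 26.1 and 18.3 CPM in capilEC. It was higher in aEC on 3 plates and lower on s169s, which held 7 aEC cells. Gja1 (53.2 CPM in aEC and 79.2 CPM in capilEC, log2 difference -0.53) and Gjc1 (38.3 CPM in aEC and 55.6 CPM in capilEC, log2 difference -0.49) were within 4-fold. The comparisons of aEC, vEC and CP-EC with capilEC share the capilEC cells. In aEC against vEC, 2 of 4 were past 4-fold, both higher in aEC, where 3.55% of all genes measured were, beside 3.18% that were lower and 6.72% in all. Gja4 stood at 162 CPM in aEC and 1.98 CPM in vEC (log2 difference 4.58, higher on 3 of 4 plates). Gja1 stood at 53.2 CPM in aEC and 7.65 CPM in vEC (log2 difference 2.20, higher on all 4 plates, 0.29 to 3.81); without plate s483s the difference was 1.47.

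Gjc1 was 16.0 CPM in FB (interval 11.5 to 21.8), 38.3 CPM in aEC (36.2 to 40.5), 28.2 CPM in vEC (25.5 to 31.1), 0.604 CPM in CP-EC (0.0732 to 2.18) and 55.6 CPM in capilEC (54.5 to 56.8). In the mural types it was 384 CPM in vSMC (368 to 399), 164 CPM in aSMC (156 to 171) and 262 CPM in PC (252 to 272), and in MG 2.58 CPM (2.05 to 3.19). The mural types again stood highest, but their plates were spread widely, from 210 to 487 CPM in vSMC, 31.9 to 285 CPM in aSMC and 145 to 697 CPM in PC. Their order was within that spread. The same was true of capilEC (34.2 to 73.0 CPM), aEC (0.66 to 64.6 CPM) and vEC (23.7 to 46.6 CPM). The FB value came from 1 cell with 95.1% of its reads, which also held 6513 CPM of the endothelial list, and was 0.855 CPM without it.

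Fewer mural cells held Gjc1 than held Gja4. At 50 CPM or above, Gjc1 was found in 16 of 29 vSMC, 14 of 41 aSMC and 16 of 54 PC. Of these Gjc1 cells, 13 of 16 vSMC (81.25%), 10 of 14 aSMC (71.4%) and 9 of 16 PC (56.25%) also held Gja4 at that level. These shares were close to or below those of all cells of the type, 79.3% in vSMC, 80.5% in aSMC and 59.3% in PC. In endothelium Gjc1 was found in 13 of 116 aEC, 5 of 45 vEC and 95 of 787 capilEC, and in 1 of 137 MG. In contrast with Gja4, the Gjc1 cells of the endothelium did not have more arterial transcript, with a median of 905 CPM in the 13 aEC cells and 1382 CPM in the other 103, and 29.0 CPM in the 95 capilEC cells and 34.5 CPM in the other 692. The median depth was 214865 reads in these 13 aEC cells and 237081 in the others. In capilEC it was 256147 reads in the 95 cells and 186502 in the others, and the part of depth was not tested. In aEC, 1 cell held both Gjc1 and Gja4 at 50 CPM or above.

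Within the mural layer, none of the 4 connexins measured was past 4-fold. In aSMC against PC, where 7.53% of all genes measured were higher and 11% lower to that extent, 18.6% in all, the log2 difference was 0.26 for Gja4 (plates -0.01 to 0.90) and -0.66 for Gjc1 (plates -4.25 to 0.24). In vSMC against aSMC, where 9.86% were higher and 10.7% lower, 20.5% in all, it was 0.09 for Gja4 (plates -0.34 to 0.42) and 1.20 for Gjc1 (plates -0.43 to 3.65). Gja4 thus differed little between the 3 mural labels, while Gjc1 varied by plate. Gja1 came nearest to the limit, with -1.96 in aSMC against PC (plates -3.83 to 0.24) and 1.88 in vSMC against aSMC (plates -0.20 to 3.46). Both values rested on 1 cell, which held 93.6% of the Gja1 reads in PC and 90.2% in vSMC. Without the top cell of each type the levels were 1.05 CPM in aSMC, 1.24 CPM in PC and 1.98 CPM in vSMC.

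**Figure D4:**
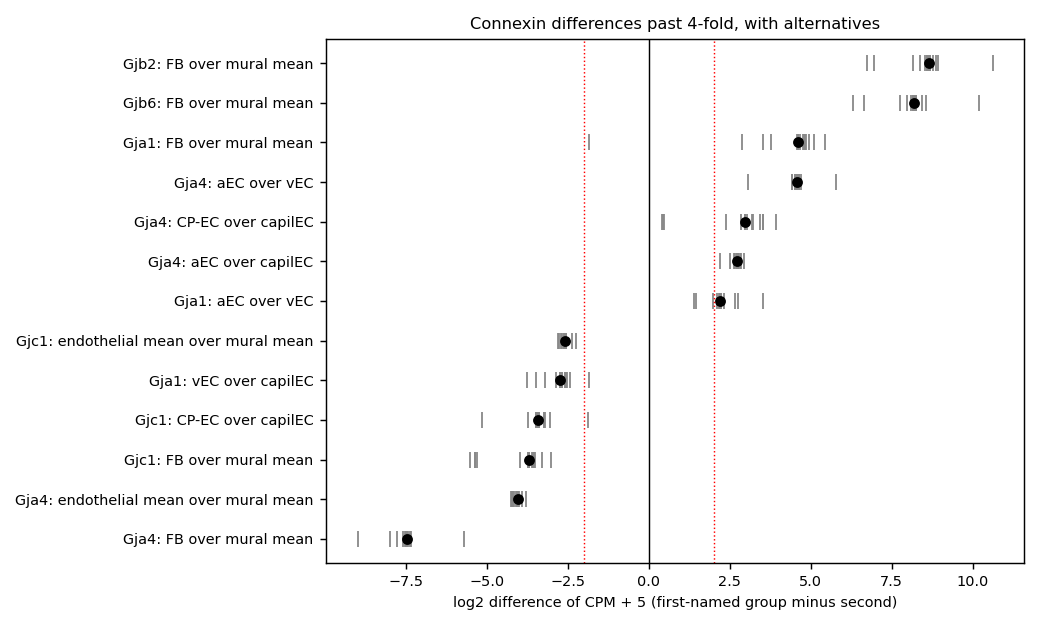
Differences of log2(CPM + 5) for the 13 pairs of gene and comparison past 4-fold, first-named group minus second. Black points are the values reported, grey ticks the 16 alternatives, red lines 4-fold. Of 208 alternative values, 199 were past 4-fold, among them those of alternatives that changed only the filter and so repeat the reported value. The Gja4 difference of CP-EC and capilEC and the Gja1 difference of FB and the mural types spread most across the line.

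Gja1 levels were 423 CPM in FB (interval 398 to 449), 53.2 CPM in aEC (50.7 to 55.8), 7.65 CPM in vEC (6.28 to 9.24), 129 CPM in CP-EC (117 to 142) and 79.2 CPM in capilEC (77.9 to 80.5). In the mural types they were 17.8 CPM in vSMC (14.7 to 21.4), 1.20 CPM in aSMC (0.658 to 2.02) and 19.1 CPM in PC (16.5 to 21.9), and in MG 1.50 CPM (1.11 to 1.99). The vSMC and PC values came from 1 cell each. In PC that cell held 93.6% of the reads and 12515 CPM of the endothelial list (median PC cell 2818 CPM), and the level without it was 1.24 CPM. In vSMC it held 90.2% of the reads and 9253 CPM of the endothelial list (median 1450 CPM), and the level without it was 1.98 CPM. Without these cells Gja1 in all 3 mural types was near MG, and the part of endothelial RNA was not tested.

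In endothelium Gja1 was read in a minority of cells at high level. It reached 50 CPM in 15 of 116 aEC, 1 of 45 vEC, 4 of 17 CP-EC and 108 of 787 capilEC, against 1 of 137 MG. The highest cell stood at 1959 CPM in aEC and 248 CPM in vEC. Gja1 cells had more arterial transcript in both larger types: the arterial list had a median of 2510 CPM in the 15 aEC cells and 1001 CPM in the other 101, and of 202 CPM in the 108 capilEC cells and 30.8 CPM in the other 679. The median depth was 314603 reads in these 15 aEC cells and 227715 in the others, and 209854 reads in the 108 capilEC cells and 188344 in the others; the part of depth was not tested. In aEC, 3 of the 15 Gja1 cells also held Gja4 at that level, 20%, close to the 22.4% of all aEC cells that held Gja4. Gja1 and Gjc1 were both found in 18 capilEC cells, which is 16.7% of the Gja1 cells and 18.9% of the Gjc1 cells, while 12.1% of all capilEC cells held Gjc1 and 13.7% held Gja1.

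In vEC against capilEC, 1 of 3 connexins measured was past 4-fold, against 1.98% of all genes measured that were higher to that extent, 1.99% lower and 3.97% in all. It was Gja1, at 7.65 CPM in vEC and 79.2 CPM in capilEC, with a log2 difference of -2.73. Plates s169s, s480s, s482s and s483s gave 1.78, 0.952, 24.4 and 0.765 CPM in vEC, against 79.6, 96.5, 81.5 and 63.3 CPM in capilEC, lower in vEC on all 4. A single cell held 72.2% of the vEC reads, and without it vEC stood at 2.17 CPM. Gja4 was at 1.98 CPM in vEC and 20.1 CPM in capilEC, a log2 difference of -1.84 on this scale. Gjc1, at 28.2 CPM in vEC and 55.6 CPM in capilEC, differed by -0.87.

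Among capilEC, 1 cell of plate s169s held the most Gja1 and Gjb6. It held 2825 CPM of Gja1, 1323 CPM of Gjb6 and 11490 CPM of the astrocyte list, with Slc1a2 at 4315 CPM and Aqp4 at 0, and 196 CPM of the endothelial list (median capilEC cell 18102 CPM). This cell held 57.7% of all Gjb6 reads of capilEC, and the top 3 cells held 87.8%. It was not alone, since another capilEC cell reached 11591 CPM of the astrocyte list. The second highest capilEC values were 2671 CPM for Gja1 and 555 CPM for Gjb6. All 3 capilEC cells with Gjb6 at 50 CPM or above also held Gja1 at that level. Without cells over 500 CPM of the astrocyte list, which left 768 of 787, capilEC stood at 70.7 CPM of Gja1.

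CP-EC rested on 17 cells. In CP-EC against capilEC, 2 of 3 connexins measured were past 4-fold, against 5.14% of all genes measured that were higher and 18.3% lower, 23.4% in all. Gja4 stood at 190 CPM in CP-EC and 20.1 CPM in capilEC (log2 difference 2.96), but 1 cell at 4594 CPM held 86.7% of the CP-EC reads. That cell also held 3854 CPM of the mural list (median CP-EC cell 75.2 CPM) beside 6420 CPM of the fenestrated list. Without it CP-EC stood at 26.3 CPM. Without the cell with the most Gja4 reads in each of CP-EC and capilEC, the difference was 0.45. Gjc1 was at 0.604 CPM in CP-EC, 2 reads in 2 cells, and 55.6 CPM in capilEC (log2 difference -3.44); no CP-EC cell reached 50 CPM. Gja1 was at 129 CPM in CP-EC and 79.2 CPM in capilEC (log2 difference 0.67), and 418 of its 427 CP-EC reads came from plate s483s.

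Gja5 was low in every type. It stood at 0 CPM in FB (0 of 9 cells, where 3 reads would be 1.17 CPM), 9.81 CPM in aEC (interval 8.740 to 10.97), 4.75 CPM in vEC (3.68 to 6.03), 0.302 CPM in CP-EC and 3.35 CPM in capilEC (3.09 to 3.64). It stood at 7.31 CPM in vSMC (5.35 to 9.75), 5.93 CPM in aSMC (4.62 to 7.51), 9.998 CPM in PC (8.19 to 12.1) and 4.32 CPM in MG (3.64 to 5.10). A Gja5 read was found in 9.48% of aEC cells, at a median depth of 235862 reads, and 9.49% of MG cells, at 232674 reads, and in 7.76% and 8.03% after thinning. The aEC share was thus not above that of MG. The aEC reads were concentrated, with 4 cells at 50 CPM or above, 41.4% of reads in 1 cell at 837 CPM, and 5.78 CPM without it. The reads were also concentrated in 4 other types, where the top cell held 50.7% of the reads in vEC, 67.4% in vSMC, 56.5% in aSMC and 57.0% in PC. Without it the level was 2.44 CPM in vEC, 2.46 CPM in vSMC, 2.75 CPM in aSMC and 4.35 CPM in PC. The top aEC cell held 8787 CPM of the arterial list, against 1379 CPM in the median aEC cell, and 3 of the 4 aEC cells also held Gja4 at 50 CPM or above. Exons of Gja5 overlap Gpr89 on the opposite strand over 165 bases, and reads there cannot be told apart without strand.

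Gjb2 and Gjb6 formed the connexin pair of FB. They lie next to each other on chromosome 14, with no protein-coding gene between them. The 250 bases upstream of the RefSeq starts of both genes (GRCm38.p6, minus strand) are shown because the pair was read together in FB, and that of Gja4 (minus strand, chr4:127314040-127314289) because it was the main mural connexin. The window of Gjb2 lies at chr14:57104703-57104952 and that of Gjb6 at chr14:57133612-57133861. Sequences run 5′ to 3′ in the direction of the gene, and capitals mark the GC box, GGGCGG on either strand.
Gjb2: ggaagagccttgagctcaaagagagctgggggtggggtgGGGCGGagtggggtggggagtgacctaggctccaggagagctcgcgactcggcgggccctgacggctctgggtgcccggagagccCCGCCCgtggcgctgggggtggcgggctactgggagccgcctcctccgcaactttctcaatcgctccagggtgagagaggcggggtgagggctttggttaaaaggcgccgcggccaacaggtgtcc
Gjb6: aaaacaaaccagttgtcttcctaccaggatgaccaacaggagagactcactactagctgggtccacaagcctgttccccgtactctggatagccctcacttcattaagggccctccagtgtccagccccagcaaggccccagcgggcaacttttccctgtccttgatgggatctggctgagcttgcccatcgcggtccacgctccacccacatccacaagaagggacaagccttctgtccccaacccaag
Gja4: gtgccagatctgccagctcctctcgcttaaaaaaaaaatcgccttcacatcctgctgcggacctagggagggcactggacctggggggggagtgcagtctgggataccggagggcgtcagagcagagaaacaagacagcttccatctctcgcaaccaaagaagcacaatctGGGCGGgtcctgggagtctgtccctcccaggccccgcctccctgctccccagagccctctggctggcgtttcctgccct
Gjb2 had 18 CG dinucleotides and 69.2% GC in this window, Gjb6 had 5 and 56.8%, and Gja4 had 9 and 61.2%, against medians of 6 and 52% over 27025 RefSeq promoters. A GC box was found 211 and 126 bases upstream in Gjb2 and 79 bases upstream in Gja4, and in 32.9% of all promoters. None was found in Gjb6, so the adjacent genes did not share it. Of the 5 members with an entry (Gja1, Gja4, Gja5, Gjb2 and Gjb6), none held TGGGAA, the core of the RBPJ site, on either strand (21.5% of all promoters), or a CArG box, the serum response factor site (1.399%).

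Gjb2 stood at 2150 CPM in FB (interval 2094 to 2208) and Gjb6 at 1573 CPM (1525 to 1622). As levels of the type outside FB, Gjb2 did not exceed 0.946 CPM (aSMC) and Gjb6 did not exceed 3.73 CPM (capilEC), and neither had a read in PC, where 3 reads would be 0.280 CPM. FB held 96.7% of all Gjb2 reads and 85.3% of all Gjb6 reads of the data. The next type was lower by 8.50 log2 units for Gjb2 and 7.50 for Gjb6.

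Among the 9 FB cells, Gjb2 stood at 4100, 3528, 3061, 2407, 0, 2314, 0, 2501 and 2164 CPM. In the same order Gjb6 stood at 1760, 2067, 2454, 3145, 137, 45.4, 0, 2834 and 1663 CPM. Both were at 50 CPM or above in 6 cells, while 1 cell had Gjb6 alone, 1 had Gjb2 with low Gjb6, and 1 had neither. Gja1 stood at 695, 136, 0, 0, 0, 1196, 0, 526 and 962 CPM, and the 5 cells with Gja1 all held Gjb2. The cells came from all 4 plates, with 4, 1, 2 and 2 cells. The 2 cells without Gjb2, of plates s480s and s482s, were not low in fibroblast transcript, with 13287 and 12275 CPM of the fibroblast list, against a median of 11812 CPM over the 9 cells.

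**Figure D5:**
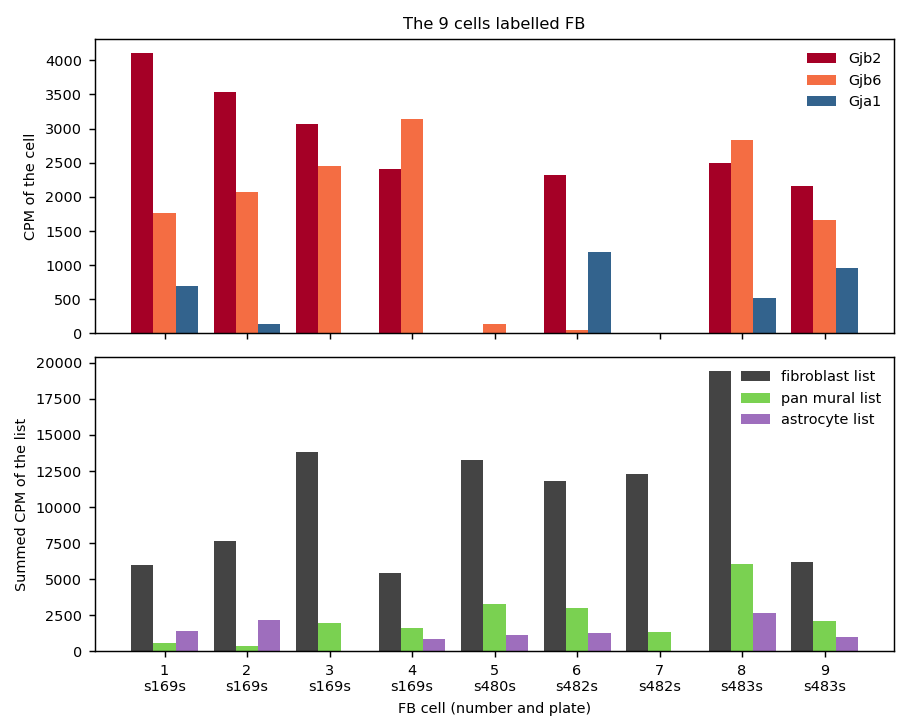
The 9 cells labelled FB by plate. The upper panel shows Gjb2, Gjb6 and Gja1, the lower panel the summed fibroblast, mural and astrocyte lists (CPM of the cell). Gjb2 is at or above 2164 CPM in 7 cells and 0 in 2, and the fibroblast list is present in all 9.

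In FB against the mural mean, 5 of 6 connexins were past 4-fold, 3 higher and 2 lower, against 32.5% of all genes measured in either direction, 8.98% higher and 23.5% lower. No plate held enough FB cells for a value of its own. The log2 difference was 8.65 for Gjb2 and 8.20 for Gjb6. For Gja1 it was 4.60, with 423 CPM in FB and 12.7 CPM in mural cells. Gja4 was lower in FB at 1.17 CPM, against 1097 CPM in mural cells (log2 difference -7.48), and Gjc1 was lower at 16.0 CPM, against 270 CPM in mural cells (-3.71). The median over all genes measured was -0.62. FB thus held Gjb2, Gjb6 and Gja1 in place of Gja4 and Gjc1. The mural list summed to 2048 CPM in FB, against 18960 CPM in vSMC, 12757 CPM in aSMC and 17193 CPM in PC. Markers of astrocytes, which also use Gjb6 and Gja1, were examined in FB. The astrocyte list summed to 1152 CPM, of which Slc1a3 gave 1151 CPM, and 7 of its 9 genes (Aqp4, Gfap, Slc1a2, Aldh1l1, Mlc1, Fgfr3 and Cldn10) were at 0. Leaving out cells over 500 CPM of that list left 2 FB cells, both without Gja1, and the Gja1 difference was then -1.84; the part of astrocyte RNA in the FB values was not tested.

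Counted over all 6 genes, at least 1 connexin reached 50 CPM in 8 of 9 FB, 50 of 116 aEC (43.1%), 6 of 45 vEC (13.3%), 5 of 17 CP-EC, 211 of 787 capilEC (26.8%), 26 of 29 vSMC (89.7%), 37 of 41 aSMC (90.2%), 39 of 54 PC (72.2%) and 7 of 137 MG (5.11%). Mural cells and FB were thus mostly connexin positive by this measure, and endothelial cells mostly not. Exactly 2 of the 6 genes were at this level in 13 vSMC, 9 aSMC and 12 PC, and in 8 aEC and 33 capilEC.

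The genes whose levels over the 9 types were most like each member (Pearson r of log2(CPM + 5), 9 types that share library preparation, among 3207 genes) are given as a description. For Gja4 they were Mcam (0.987), a mural adhesion molecule that is on the mural list, Zc2hc1a (0.959) and Ccnd2 (0.955). For Gjc1 they were Arhgap1 (0.966), Mprip (0.944) and Rgs5 (0.942), the last a mural marker. For Gja1 they were Efnb2 (0.974), an ephrin of the arterial list that was highest in FB (88.4 CPM), Pcdhgb1 (0.906) and Pon2 (0.899). For Gja5 they were Elmo2 (0.936), Esyt1 (0.916) and Strn3 (0.906). For Gjb6 they were Col1a1 (0.998), Pdgfra (0.997) and Megf10 (0.997), and for Gjb2 they were Ranbp3l, Slc22a6 and Asgr1, all read mainly in FB. Among the members, Gjb2 and Gjb6 had r = 0.996 and Gja4 and Gjc1 had r = 0.677. The gene next to Gjc1 on chromosome 11 is Higd1b, a pericyte marker, at 1001 CPM in vSMC, 225 CPM in aSMC and 1167 CPM in PC.

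The rest of the connexin family was nearly silent. None of the 14 other connexin genes of the table (among them the oligodendrocyte genes Gjb1 and Gjc3 and the neuronal gene Gjd2) exceeded 5 CPM in any type, and none was therefore measured in any comparison. The highest was Gjc3 in FB at 2.74 CPM. Gja3, a neighbour of Gjb2, had no read in any of the 9 types. Of the 3 pannexins, which form plasma membrane channels and no gap junctions, Panx1 alone was measured, at 36.8 CPM in FB, 15.0 CPM in aEC, 6.52 CPM in vEC, 116 CPM in CP-EC, 3.27 CPM in capilEC and 10.3 CPM in PC, with 0 reads in vSMC and 1 in aSMC. It was past 4-fold in CP-EC against capilEC (3.87) and in FB against the mural mean (2.30), where 1 cell held 98.9% of the FB reads and 4 of 17 CP-EC cells held a read.

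The 7 connexin partners were measured in most comparisons. Tjp1, the scaffold that binds connexin tails, was at 320 CPM in aEC, 326 CPM in vEC and 333 CPM in capilEC, and it was not past 4-fold in any comparison. Nor were Ctnnb1 and Cav1, beta-catenin and caveolin. Cdh2, the N-cadherin of contacts between endothelium and pericytes, was lower in aEC, at 0.862 CPM, than in capilEC, at 30.4 CPM (log2 difference -2.59, lower on all 4 plates), and lower in aSMC, at 13.8 CPM, than in PC, at 111 CPM (-2.63, lower on all 4 plates). It was also lower in aEC than in vEC (-2.24) and in FB than in mural cells (-3.63). In vSMC against aSMC, Cnst, a connexin sorting factor, and the endothelial cadherin Cdh5 were higher by 3.10 and 2.67 log2 units, each on 3 of 4 plates. Cdh5 stood at 129 CPM in vSMC and 16.2 CPM in aSMC beside the endothelial list at 3587 CPM in vSMC and 1625 CPM in aSMC, whose part was not tested. Cnst was also past 4-fold lower in aSMC than in PC (-2.27, lower on 1 of 4 plates), in CP-EC than in capilEC (-2.65) and in FB than in mural cells (-2.36). In PC, 1 cell held 99.5% of the Cnst reads, and the level was 20.7 CPM with it and 0.0969 CPM without it, against 0.344 CPM in aSMC. In vSMC, 4 of 29 cells held a Cnst read, and the level was 40.7 CPM with the top cell and 19.9 CPM without it. The 3 Cnst differences that involve mural cells rest on these cells.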

How the data were processed

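The deposited table held raw read counts per gene for 1235 single cells, made by the authors, with a cell type label per cell in a second table. The submitters' processing notes name featureCounts, Subread 1.4.6-p5 and SAMtools 1.16.1 and the builds GRCm38 and GRCm39; the role of each, the use of strand, and how labels and cell filters were set are not given in the sources used here. Smart-seq2 counts carry no molecular identifiers. Each cell took its label from the deposited table and its plate from the prefix of its name, all columns were used (0 left out), and 0 cells were exact copies of another. No doublet caller was run.

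Counts were summed per type and divided by the library total to give CPM, with exact Poisson 95% intervals. With 1 sample per type there was no test. Differences were taken on log2(CPM + 5), which understates those of low genes, over genes above 5 CPM in either group, and per plate where it held at least 5 cells of each type. Means over types weighted each type equally. Levels per kb used the longest principal transcript (1685 bases for Gja4 to 3182 for Gja1). Thinning drew 100000 reads per cell. Alternatives used other scalings (edgeR 4.0.16 TMM factors, DESeq2 1.42.0 size factors), pseudocounts, filters, depths and cells. The computation was tested on simulated counts (Python 3.11.15, numpy 2.4.6, pandas 2.3.3, scipy 1.17.1, R 4.3.3). The text names all 6 connexins, the genes of the pathway lists over 5 CPM in a type or past 4-fold, and the 3 genes most like each member with at least 50 CPM and a read in 50% of cells of their highest type; other genes were chosen after their values were seen. Members and lists were chosen with earlier results of these data known. Promoters are RefSeq sequences of GRCm38.p6; 5 of 6 members matched by symbol. Values of some genes of the pathway lists are not reported here.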

Additional observations from a re-analysis of the deposited data

How the results depend on the processing

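No paired analysis was possible because each cell type label is 1 sample, so no 2 labels share more than 1 replicate number; differences within plates stand beside the values. Of 128 alternative values for the 8 counts of connexins past 4-fold, 108 were within 1.5 times the count reported and 20 were not. With a pseudocount of 1 CPM the count was 2 in vEC against capilEC, 1 in aSMC against PC and 1 in vSMC against aSMC, with Gja4 or Gja1 added. With a pseudocount of 20 CPM it was 0 in vEC against capilEC, 1 in aEC against vEC and 1 in CP-EC against capilEC. With at least 50 CPM and a read in 50% of cells required, it was 0, 1 and 0 in these 3 comparisons. Leaving out each plate gave 1 to 2 in aEC against vEC, 1 to 2 in CP-EC against capilEC, 0 to 1 in aSMC against PC and 0 to 1 in vSMC against aSMC. In CP-EC against capilEC, the count was 1 without the top cell of each gene and type and 1 without cells with markers of another class. The Gja4 difference there was 0.46 without plate s169s, 0.45 without the top cell of each type and 0.42 without such cells. Of 208 alternative values of the 13 differences past 4-fold, 199 stayed past it. These include the alternatives that changed only the filter (no minimum level, or at least 50 CPM and a read in 50% of cells). Such alternatives repeat the reported difference and could not fall short of the limit. The 1 that reversed was Gja1 in FB against mural cells, at -1.84 without cells over 500 CPM of the astrocyte list, with 2 FB cells left. In FB that list was almost only Slc1a3, at 1151 of 1152 CPM. DESeq2 size factors moved the median of all genes to -0.11 in CP-EC against capilEC (reported -0.38), to -0.44 in FB against mural cells (-0.62), to -0.15 in endothelium against mural cells (0.03) and to -0.03 in aSMC against PC (-0.15). TMM factors moved it to -0.10 in vEC against capilEC (0.07), to 0.10 in aEC against vEC (-0.07), to 0.00 in aSMC against PC (-0.15), to -0.49 in CP-EC against capilEC (-0.38) and to -0.08 in vSMC against aSMC (0.03). FB and CP-EC, with 9 and 17 cells, had the fewest reads in total.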
